A study of Mus musculus with 64 samples.

Results

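Sleeping Beauty (SB) insertions were compared between lymphomas taken from the spleen (3 mice) and lymphomas taken from the gut or its mesentery (6 mice). These are 9 of the 11 SB tumours among 64 samples, and they hold 40545 of the 299594 unique insertions counted in the series. Members were the SB samples whose tissue label was SPLEEN, against those labelled MES MASS (2), MES LN (2), SI MASS (1) or PROX SI (1), which are called gut/mesenteric here. SB tails (11 mice) served as controls, and piggyBac (PB) tumours of the spleen (6) and of the mesentery (15) were used for a parallel comparison. All SB mice carried a transposase knocked in at Rosa26, so that transposition was not limited to a single cell type, on a Blm-deficient (Blm m3/m3) and mixed C57BL/6, 129Sv and FVB background, with a transposon line of the ITP1-C or ITP2-M type. The tails came from mice of the same kind and also carried insertions. The tumours were diagnosed as diffuse large B-cell lymphoma by histology. Each sample was taken to be from a different mouse, as each sample name carries its own code, but the names do not state this. All samples are bulk DNA, so the tissue label could not be checked against expressed markers.

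SB is a cut-and-paste DNA transposon that integrates at TA dinucleotides, whereas PB integrates at TTAA. What an insertion does to a gene depends on the cargo of the transposon. An internal promoter can activate a gene, whereas splice acceptors with poly(A) sites in both directions can inactivate it. The cargo of the ITP lines is not described here. Orientations relative to a gene are therefore given without a claim about activation or inactivation. Many insertions occur in each cell and most have no consequence. Those present in the founder of an expanded clone are recovered with many reads, and genes hit in several tumours more often than their TA content predicts are called common insertion sites. Diffuse large B-cell lymphoma (DLBCL) arises from mature B cells, and the NF-kB pathway, the B-cell receptor, the death receptor FAS and the transcription factors of the B lineage are genes recurrently affected in it.

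The most covered insertion differed in position between the 9 tumours, and 3 of the 9 lay in the same intron of the same gene. The genomic sequence around the leading insertions is given because it shows the TA that each one used (in capitals, with 14 bases on each side, GRCm38, plus strand). The line for Cbfb gives the second most covered insertion of spleen tumour 1 and those for Ebf1 the third most covered of gut/mesenteric tumours 2 and 3.
Fas, spleen tumour 1, chr19:34320642-34320643: tatgggaataggcaTAagtcggaacaggct
Fas, gut/mesenteric tumour 3, chr19:34321853-34321854: ttttttaaatgagaTAtaatggaaactatt
Fas, gut/mesenteric tumour 6, chr19:34323135-34323136: agcatcactcaagaTAgctatctcagggtc
Nfkb2, spleen tumour 2, chr19:46310110-46310111: gggaccgaggagtgTAtatgatcaataaac
Cbfb, spleen tumour 1, chr8:105178224-105178225: tatatacaactttaTAttatgctttaaatt
Larp1, gut/mesenteric tumour 2, chr11:58027265-58027266: gttgcttccccacaTAgatgctgtgatgaa
Serpinb2, gut/mesenteric tumour 4, chr1:107516362-107516363: accttggaactactTAaaatacatactata
Ebf1, gut/mesenteric tumour 2, chr11:44848275-44848276: cctcaccctatactTAgcatggcatcttgg
Ebf1, gut/mesenteric tumour 3, chr11:44631460-44631461: aagtaaaaacaattTAtttatttttaaaat
Intergenic, gut/mesenteric tumour 1, chr2:138021338-138021339: tgtttataaattgtTAaatacaaaaacaac

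The 9 tumours had between 56871 and 131151 reads on autosomes other than chromosome 14, the donor chromosome from which the transposons were mobilised. Depth differed between the groups without overlap, with 130896, 109806 and 131151 reads in spleen tumours 1 to 3 and 56871 to 108332 in the gut/mesenteric tumours. A further pair of properties of the samples touches results below. First, gut/mesenteric tumour 4 (PROX SI) stood apart, with 1639 insertions, of which 4 held 6.35% of reads or more each. Second, between 0.853% and 3.07% of the insertion positions of a tumour also occurred in another sample. The largest overlaps within the 9 were 50 positions between spleen tumour 1 and gut/mesenteric tumour 2, whose sample names carry the same number, and 35 positions between spleen tumours 2 and 3. In 14 of the 50 positions the gut/mesenteric tumour had at least 10 times the reads of the spleen tumour. Spleen tumour 2 and gut/mesenteric tumour 6 shared 34 positions. Overlaps of this size also occurred with tails. Tail 5 shared 54 positions with spleen tumour 2, 45 with spleen tumour 3 and 43 with gut/mesenteric tumour 6, and tail 1 shared 48 with spleen tumour 1. Whether shared positions come from related animals, from carry-over between libraries or from repeated use of a TA was not tested. The p-values of comparisons between groups measure the spread between single tumours.

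The most covered insertions held a smaller share of reads in the spleen tumours than in most gut/mesenteric tumours. The 10 most covered insertions held 10.5%, 15.6% and 7.79% of reads in spleen tumours 1, 2 and 3. In the gut/mesenteric tumours they held 17.8%, 33.4%, 29.2%, 82.0%, 28.6% and 15.1%. All but one of the gut/mesenteric values lay above all spleen values, the exception being tumour 6, which was slightly below spleen tumour 2. The mean was 11.3% ± 3.95 (SD, n = 3) in spleen against 34.4% ± 24.4 (SD, n = 6), and a 2-sided exact permutation test of the difference gave p = 0.0476, or 0.167 after Benjamini-Hochberg adjustment over the 7 sample measures. The difference of -23.1 percentage points became -13.5 without gut/mesenteric tumour 4 (exact permutation p = 0.0714) and -18.6 without the positions found in another sample (exact permutation p = 0.0714). Both groups lay above the tails, in which the same share ranged from 1.75% to 5.81%.

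The same pattern was seen in the number of insertions that held at least 1% of a sample's reads. It was 3, 3 and 2 in the spleen tumours. It was 8, 9, 11, 4, 10 and 5 in the gut/mesenteric tumours. The groups did not overlap, with 2.67 ± 0.577 (SD, n = 3) against 7.83 ± 2.79 (SD, n = 6) insertions. The exact permutation test gave p = 0.0238, the smallest that 3 against 6 samples allow, and 0.167 after adjustment over the 7 measures. Tails had between 0 and 2 such insertions. When every position found in another sample was left out, the counts became 1, 1 and 0 in spleen and 6, 1, 2, 4, 10 and 4 in gut/mesenteric tumours (exact permutation p = 0.0714). In gut/mesenteric tumour 2, 8 of the 9 insertions with at least 1% of reads were also detected in spleen tumour 1, at a lower share there. When only the positions with at least 10 times the reads in another sample were left out, the counts of all 9 tumours were those given above. That filter takes a position out only of the sample with fewer reads there, so it could hardly touch insertions with at least 1% of reads. With every tumour thinned to the lowest read total, the difference was -5.17 insertions (exact permutation p = 0.0238).

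**Figure D1:**
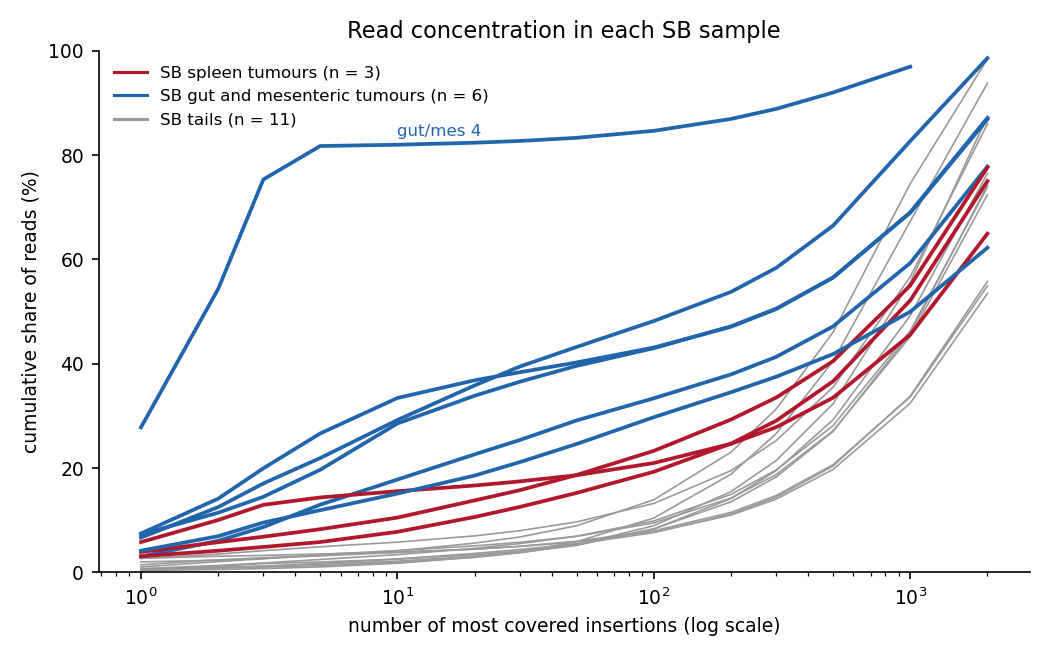
Cumulative share of reads (%, y axis) held by the most covered insertions (x axis, log scale) in each SB sample, 1 line per sample. Gut/mesenteric tumour 4 reaches 82.0% at 10 insertions, the 3 spleen tumours lie between 7.79% and 15.6% there, and the 11 tails lie below 5.81% or at it.

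Other measures separated the groups less. The effective number of insertions, the exponential of the Shannon entropy of the read shares, was 2225, 2530 and 2666 in the spleen samples in increasing order. In gut/mesenteric tumours it ran from 17.1 to 2863 with a median of 777, and tumour 6, with 2863, lay above every spleen tumour. The difference on the log2 scale was 2.17 and did not pass the test (exact permutation p = 0.0952). The number of unique insertions was 4466, 6060 and 4750 in spleen tumours 1 to 3 and between 1639 and 8786 in gut/mesenteric tumours (exact permutation p = 0.548). When only insertions with at least 10 reads were counted, the spleen tumours had more of them (exact permutation p = 0.0238), but all 3 also had more reads than any gut/mesenteric tumour, and the part of depth in this count was not tested. The most covered single insertion held between 3.11% and 5.81% of reads in spleen and between 3.04% and 27.8% in gut/mesenteric tumours (exact permutation p = 0.19). The share of insertions inside genes was 50.8% ± 1.04 (SD, n = 3) in spleen and 49.6% ± 1.52 (SD, n = 6) in gut/mesenteric tumours, with exact permutation p = 0.31. In tails it was between 45.4% and 48.6%. Insertions on chromosome 14, expressed as a share of all autosomal insertions, made up 26.2% ± 3.71 (SD, n = 3) and 23.1% ± 4.02 (SD, n = 6), respectively (exact permutation p = 0.31), against 32.2% to 45.8% in tails. In bulk DNA, a smaller clone and a larger admixture of other cells cannot be told apart.

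**Figure D2:**
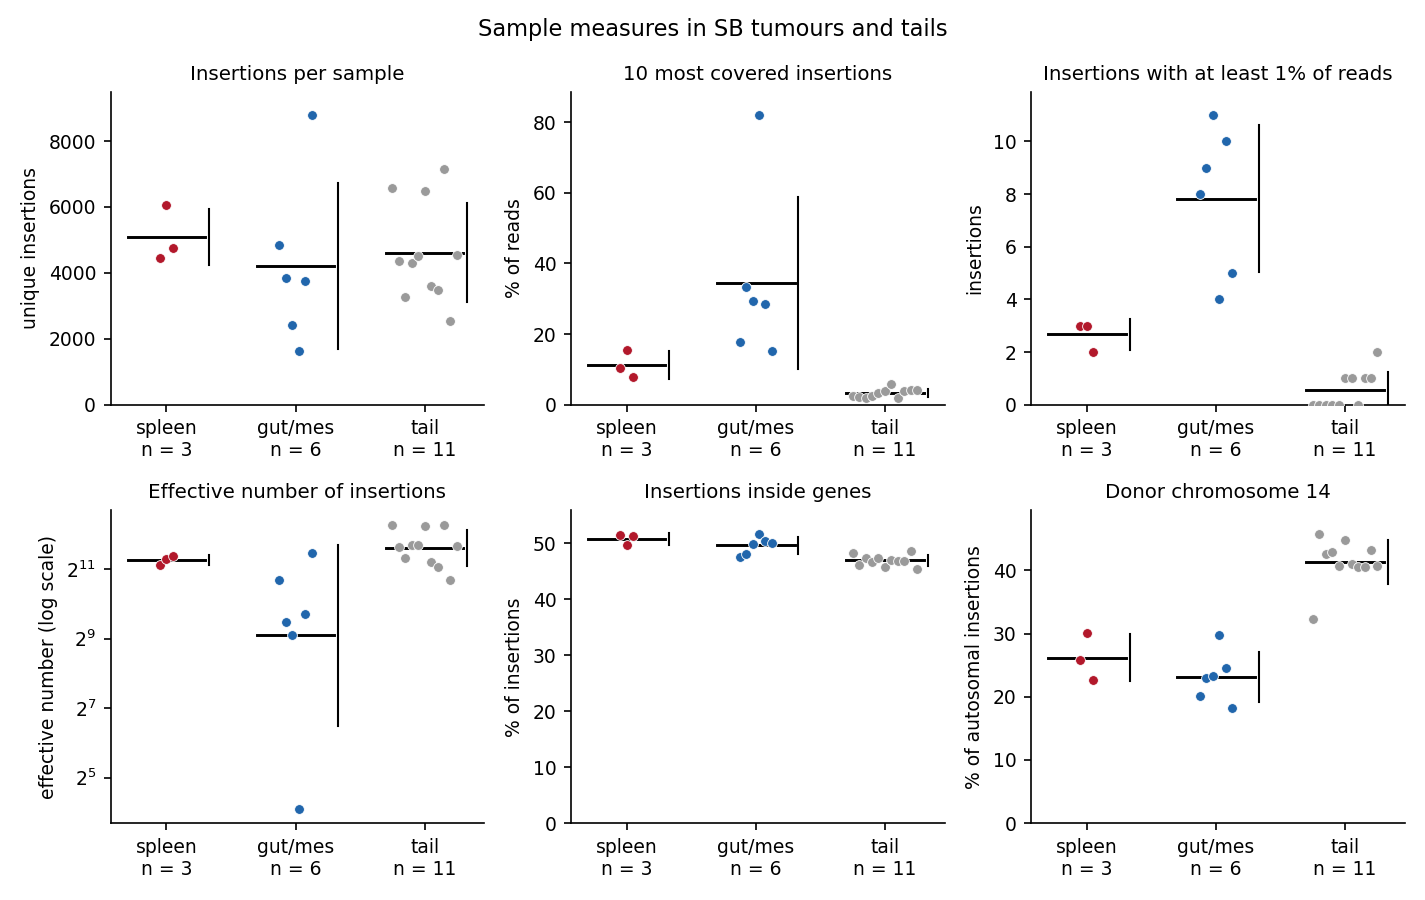
Each panel shows 1 measure of the SB samples, with its unit on the y axis: points are samples, horizontal lines are means and vertical lines are 1 SD (on the log2 scale for the effective number). Spleen (2 to 3) and gut/mesenteric tumours (4 to 11) do not overlap in the number of insertions with at least 1% of reads.

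PB tumours, which are from other mice, were compared in the same way, but their mesenteric group held no small intestine samples. The 10 most covered insertions held 18.2% ± 6.54 (SD, n = 6) of reads in PB spleen tumours and 32.8% ± 22.1 (SD, n = 15) in PB mesenteric tumours. The difference did not pass a 2-sided permutation test (p = 0.126). The SB difference minus the PB difference was -8.49 percentage points, and this did not pass the test (permutation p = 0.675). Its sign depends on the SB small intestine samples. Without them the SB difference, given below, was smaller in size than the PB difference of -14.6 points. That contrast was not tested.

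Which genes held the leading insertions was then examined. Of the 55 insertions with at least 1% of a tumour's reads, 34 lay inside a gene and 32 of these in an intron. In spleen this was 6 of 8 insertions, and in gut/mesenteric tumours 28 of 47. In 23 of the 34 the transposon had the orientation of the gene. Of the 55 insertions, 27 were also detected at the same position in at least one other sample.

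In spleen tumour 1 the leading insertion was in Fas, which encodes a death receptor that removes activated lymphocytes, with 3.93% of reads. Next came an insertion in Cbfb with 1.87%, which encodes the partner subunit of the RUNX transcription factors. In spleen tumour 2 the leading insertion held 5.81% of reads and lay in intron 15 of Nfkb2, in the orientation of the gene. Nfkb2 encodes the p100 precursor of the non-canonical NF-kB pathway, whose carboxy-terminal part is inhibitory. A further insertion of this tumour, with 30 reads, lay in intron 14 in the same orientation, and spleen tumour 3 had 1 with 14 reads in intron 13, opposite to the gene. Gut/mesenteric tumours and tails had none in Nfkb2, where 0.0871 and 0.163 were expected from its TA sites. Next came a position in the non-coding part of exon 14 of Ddx6, an RNA helicase gene, with 4.23%, and an intergenic position on chromosome 4 with 2.91%. Both were also present in spleen tumour 3. In spleen tumour 3 the leading insertion lay in Hnrnpa2b1, an RNA-binding protein gene, opposite to its orientation, with 3.11% of reads. The same position was found in tail 5 with 0.0859% of reads, and Hnrnpa2b1 was called above expectation in the tails, with 4 insertions in 4 of 11 mice. It was followed by Hdac9, a histone deacetylase gene, with 1.05%, and Ascc3 with 0.724%. The insertion of rank 4, with 0.483%, lay in intron 6 of Cd274, which encodes the immune checkpoint ligand PD-L1, and tail 5 had this position with 0.0541% of its reads. Gut/mesenteric tumour 6 had an insertion 123 bases from it in the same intron and orientation, with 0.0867% of reads. Cd274 was outside the rule for named genes and was chosen after its values were seen.

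In the gut/mesenteric tumours, Fas and Ebf1 recurred among the leading insertions. Ebf1 encodes a transcription factor that specifies the B lineage. Tumour 2 was led by Larp1 (7.46% of reads), Stt3b (6.68%) and Ebf1 (5.81%). All 3 positions were also present in spleen tumour 1, at 0.555%, 0.354% and 0.349% of its reads. Tumour 3 was led by Fas (6.68%), the non-coding gene 4933430H16Rik (5.84%) and Ebf1 (4.54%). Tumour 6 was led by Fas (4.16%), Atp2b1 (2.80%) and Ebf1 (2.60%). Ebf1 was among the 3 most covered insertions in 3 of the 6 gut/mesenteric tumours and in none of the 3 spleen tumours. These counts are small and were not tested. The Ebf1 position of tumour 3 was also found in 3 other samples. Among them were gut/mesenteric tumours 1 and 6, with 3 and 23 reads. Tumour 5 was led by Malt1 (7.29%), which encodes the paracaspase that links the antigen receptor to NF-kB, followed by Soga3 (4.16%) and Camta1 (3.05%). Tumour 4, the PROX SI sample, had among its leading insertions Serpinb2 (27.8%), Tcaf2 (21.0%) and an intergenic position on chromosome 16 (6.35%), and its insertion of rank 5 had 0.0615%. Tumour 1 differed from the others in that 6 of its 8 insertions with at least 1% of reads lay on chromosome 2, among them Dynlrb1 (3.03%) and Lrrc4c (2.62%). Chromosome 2 also held 17.9% of all insertions of this tumour, against 7.80% of the TA sites, a ratio of 2.30. The highest such ratio of any chromosome in the other 8 tumours was between 1.24 and 2.23.

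More than one tumour had Fas insertions in the same intron. Fas had 22 insertions in 5 of the 9 tumours, 2, 1 and 0 in spleen tumours 1, 2 and 3 and 0, 1, 1, 0, 0 and 17 in gut/mesenteric tumours 1 to 6. Of the 22, 13 lay in intron 8 within 4245 bases, upstream of the last exon, 10 of them from gut/mesenteric tumour 6 and 1 each from gut/mesenteric tumour 3 and spleen tumours 1 and 2. Of the 13, 11 had the orientation of the gene. The leading insertions of spleen tumour 1 and gut/mesenteric tumours 3 and 6 all lie in this intron. The single Fas insertion of spleen tumour 2 is at the position of the leading insertion of gut/mesenteric tumour 3, with 24 reads against 6784, and gut/mesenteric tumour 6 had 16 reads there. Malt1 showed a similar arrangement. It had 2, 2 and 3 insertions in the spleen tumours and 1, 0, 0, 0, 1 and 7 in the gut/mesenteric tumours. Intron 7 held 6 of them, 1 in each of 6 tumours (all 3 spleen tumours and gut/mesenteric tumours 1, 5 and 6), within 1733 bases and all in the orientation of the gene. Tumours 1 and 5 shared a position there, with 257 and 7377 reads.

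**Figure D3:**
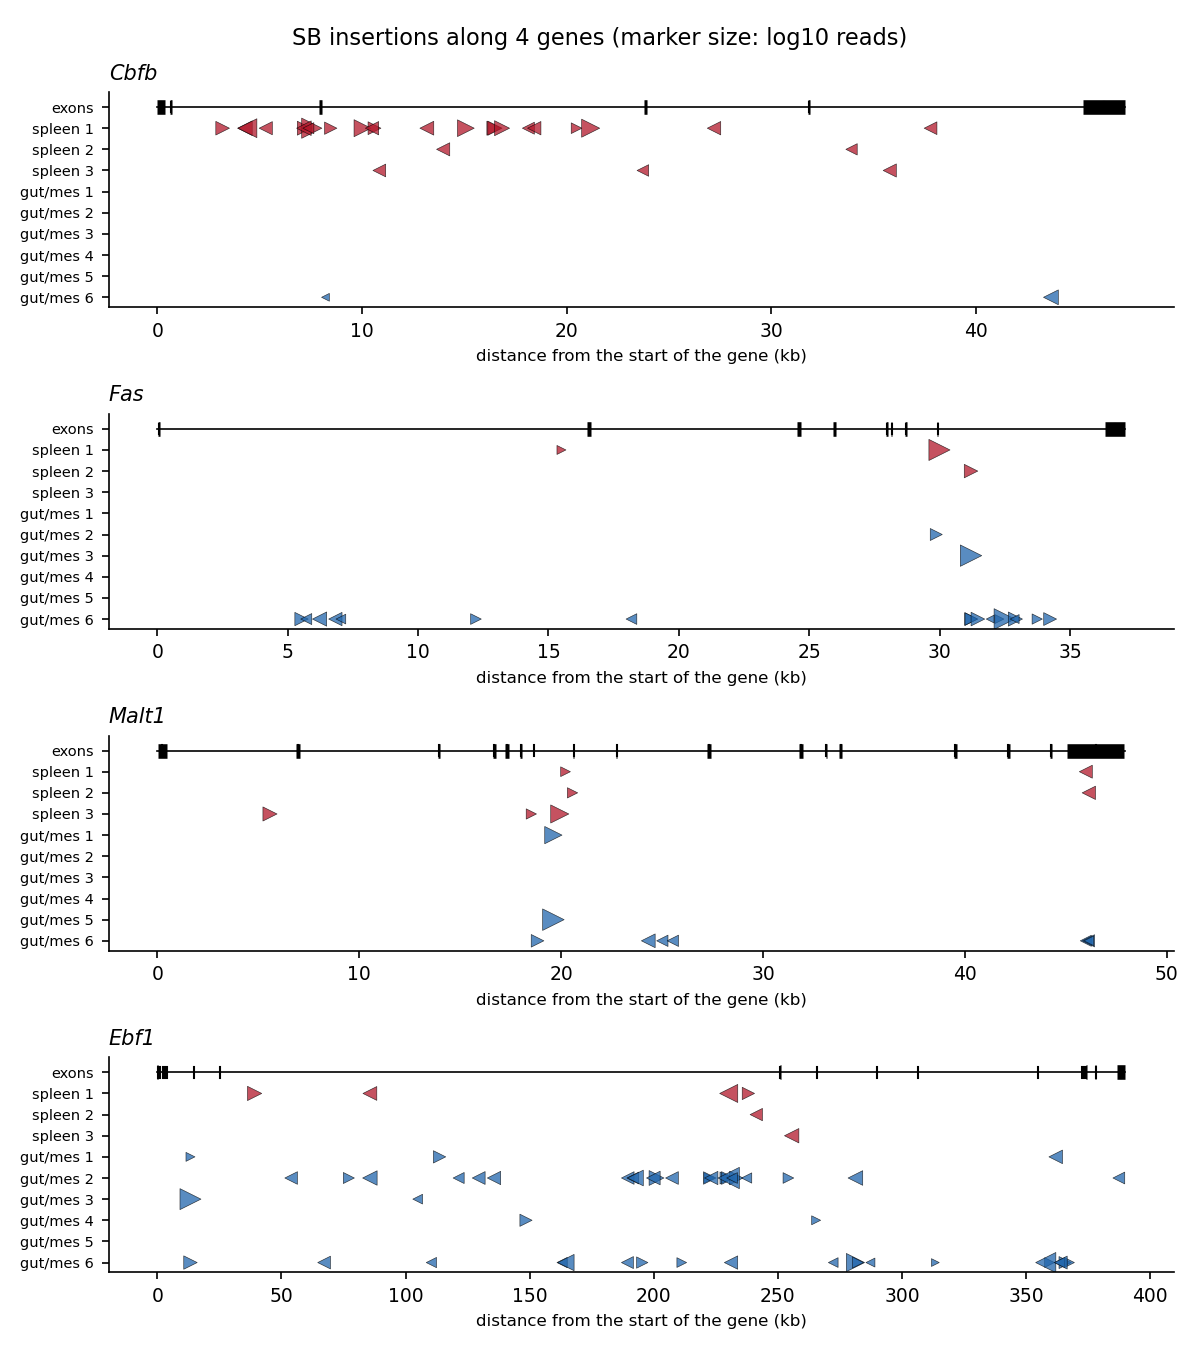
SB insertions along Cbfb, Fas, Malt1 and Ebf1, by distance from the start of the gene (kb, x axis) and by tumour (y axis). Triangles point right when the transposon has the orientation of the gene and left when it does not, their size follows log10 of the reads, and black marks are exons of the RefSeq transcript. Cbfb insertions lie mostly in spleen tumour 1, 10 of the 13 Fas insertions in intron 8 are from gut/mesenteric tumour 6, and Malt1 insertions of both groups lie in intron 7.

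Unique insertions per gene were then tested between the groups, so that each insertion counted once whatever its reads. Of 328 genes with at least 10 insertions over the 9 tumours, 1 was called by the quasi-likelihood test of edgeR at a Benjamini-Hochberg adjusted p of 0.05, or 0.305% of those tested. It was Cbfb, with more insertions in spleen. Cbfb had 23, 2 and 3 insertions in spleen tumours 1, 2 and 3 and 0, 0, 0, 0, 0 and 2 in gut/mesenteric tumours 1 to 6. The log2 fold change was 4.29 with a standard error of 0.80 (edgeR adjusted p = 2.8e-05). All 3 spleen tumours had at least 2 insertions, but the counts of spleen tumours 2 and 3 are close to that of gut/mesenteric tumour 6, so the size of the difference rests on spleen tumour 1. Without spleen tumour 1, Cbfb had fewer than 10 insertions and was not tested. With the minimum lifted and that tumour left out, the log2 fold change was 2.27 and the edgeR adjusted p was 0.579. DESeq2 gave a log2 fold change of 4.63 with an adjusted p of 0.293. Tails had 2 insertions in Cbfb, both in 1 of 11 mice.

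The Cbfb insertions of spleen tumour 1 held 3.52% of its reads in all. They lay between introns 2 and 5 of the gene, which spans chr8:105170674-105217989. Intron 2 held 8 insertions, all of this tumour, 3 in the orientation of the gene and 5 opposite. Intron 3 held 16 insertions of spleen tumours and 1 of a gut/mesenteric tumour. Over the 9 tumours, 12 of 30 insertions had the orientation of the gene. In spleen tumour 1 only 7 further insertions lay within 1 Mb on either side, so the density fell from 486 insertions per Mb inside the gene to 3.5 per Mb around it. Several of the insertions in the gene were well covered: the 2 highest held 2446 and 854 reads, and were not found in any other sample. Runx1, which encodes the DNA-binding partner of CBFB, did not differ between the groups beyond the test, with 1, 2 and 1 insertions in spleen and 2, 3, 0, 0, 2 and 4 in gut/mesenteric tumours. Runx1 had a log2 fold change of -0.66 (edgeR adjusted p = 0.955). In the PB tumours Cbfb had 3 insertions in 3 of 6 spleen tumours and 10 in 8 of 15 mesenteric tumours, with a log2 fold change of -0.32 (edgeR adjusted p = 0.977). The difference between the SB and PB values was not tested.

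**Figure D4:**
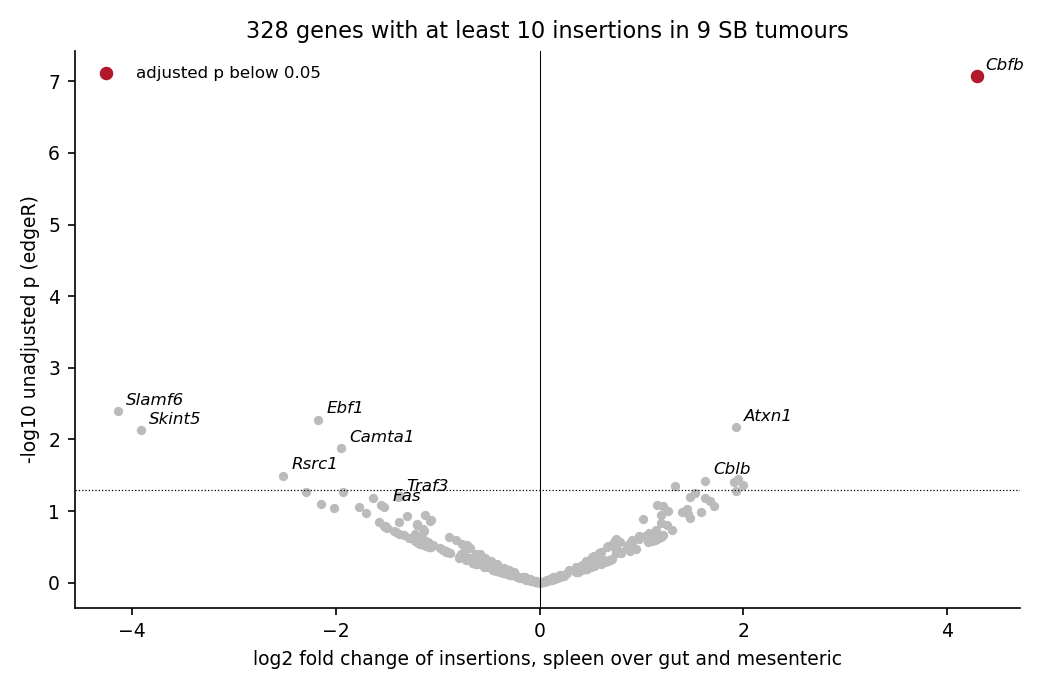
The 328 genes tested between spleen and gut/mesenteric tumours, by log2 fold change (x axis, above 0 where insertions are more frequent in spleen) and -log10 of the unadjusted edgeR p (y axis, dotted line at 0.05). Cbfb, in red, is the gene with an adjusted p below 0.05.

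Next to Cbfb, 11 of the 328 genes had an unadjusted edgeR p below 0.05, and none of them passed the adjustment over all genes. With Cbfb these are 12, a smaller share than the 0.05 that such a limit passes by chance. The 5 genes with the smallest p in each direction, Cbfb among them, are given by their values. In simulated data, genes with fewer insertions in spleen were called less often than those with more. Ebf1 had 4, 1 and 1 insertions in spleen tumours and 3, 24, 2, 2, 0 and 20 in gut/mesenteric tumours. The log2 fold change of Ebf1 was -2.18 with a standard error of 0.78 (edgeR p = 0.0053, adjusted p = 0.48). Counted by presence per tumour, the direction of Ebf1 turned (0.16 on the log2 scale), since it was hit in all 3 spleen and in 5 of 6 gut/mesenteric tumours. Tumours 2 and 6 held most of its insertions, and the other 4 gut/mesenteric tumours had at most 3 each. In the PB tumours, Ebf1 had 9 insertions in 3 of 6 spleen tumours and 120 in 13 of 15 mesenteric tumours. The log2 fold change there was -2.30 with a standard error of 0.50 (edgeR adjusted p = 0.0038), and 2 of 1766 genes, or 0.113%, were called in that comparison. The other gene called in PB was Slamf1, with 0 insertions in spleen and 40 in 9 of 15 mesenteric tumours. Slamf1 (chr1:171767131-171801184) and Slamf6 (chr1:171917458-171948958) are close on chromosome 1, and both encode receptors of the SLAM family that lymphocytes use to contact each other. In SB, Slamf6 had 14 insertions, all in gut/mesenteric tumour 6 and holding 1.14% of its reads, and a log2 fold change of -4.14 (edgeR p = 0.0041, adjusted p = 0.48). Slamf1 had 4 SB insertions, 1 each in gut/mesenteric tumours 2 and 3 and 2 in tumour 6, and none in spleen, too few for the edgeR test. From its TA sites 0.301 were expected in the gut/mesenteric tumours (Bonferroni-adjusted Wald p = 0.0027). Over the 9 tumours 0.507 were expected (Bonferroni-adjusted Wald p = 0.427). Slamf1 was named because of the PB comparison.

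Among the other genes with more insertions in spleen, Atxn1, the gene of spinocerebellar ataxia and a transcriptional co-repressor, had 8, 4 and 5 insertions in spleen and 1, 2, 1, 0, 1 and 2 in gut/mesenteric tumours. Atxn1 had a log2 fold change of 1.93 (edgeR p = 0.0067, adjusted p = 0.48). In PB its log2 fold change was 1.14 (edgeR p = 0.046, adjusted p = 0.776). Cblb, which encodes a ubiquitin ligase that restrains antigen receptor signalling, had 2, 4 and 7 insertions in spleen and 0, 0, 1, 0, 1 and 5 in gut/mesenteric tumours. Its log2 fold change was 1.62 in SB (edgeR adjusted p = 0.94) and -0.72 in PB (adjusted p = 0.823). Tbc1d5 and Iqschfp had 10 insertions each in spleen and 4 each in gut/mesenteric tumours, both with an adjusted p of 0.94. Among those with more insertions in gut/mesenteric tumours, Camta1, a transcription activator gene, had 27 of its 36 insertions in tumour 5, and Rsrc1, a splicing factor gene, 10 of its 15 in tumour 6. Skint5, an epithelial gene of the Skint family, had 10 insertions in 5 of the 6 tumours and none in spleen, while its TA sites predicted 4.23 in spleen and 7.83 in gut/mesenteric tumours. In Slamf6, Camta1 and Rsrc1 a single tumour thus held most of the insertions.

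**Figure D5:**
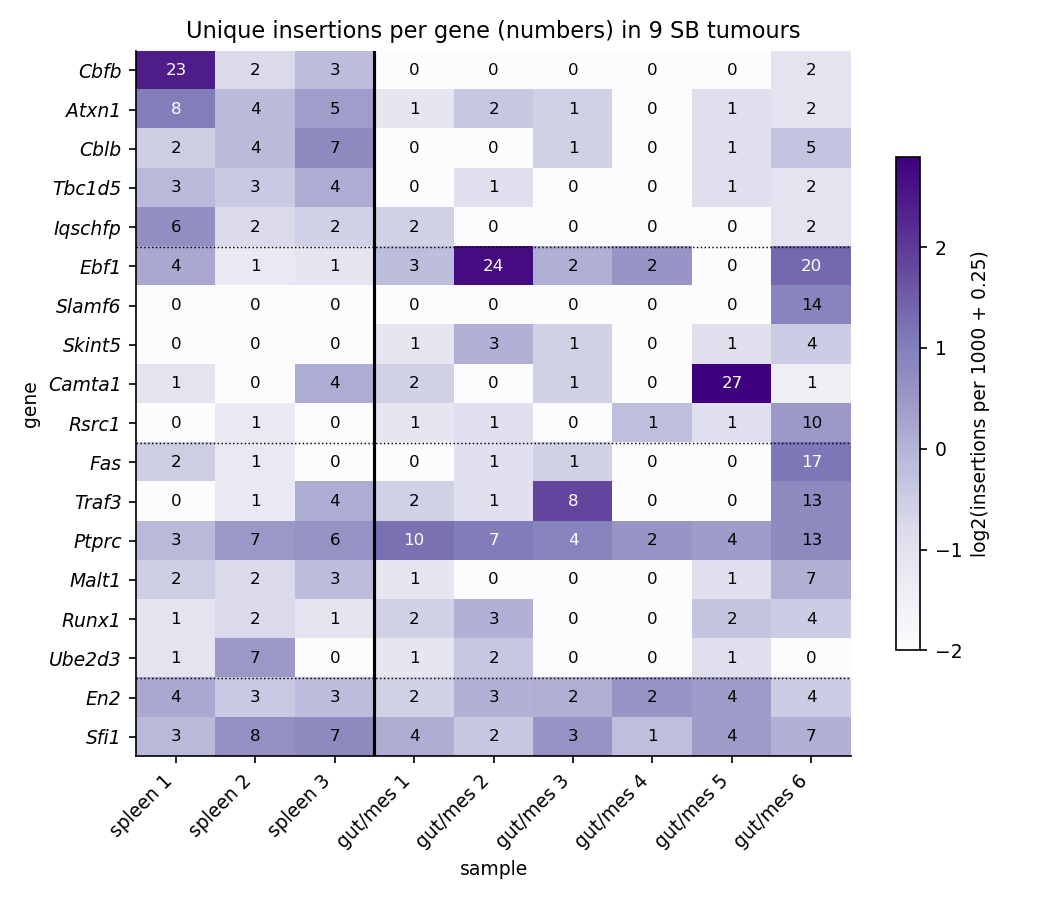
Unique insertions (numbers) of 18 genes in the 9 SB tumours, with colour giving log2 of insertions per 1000 insertions of the sample plus 0.25. From top to bottom, dotted lines part the 5 genes with the smallest p towards spleen, the 5 towards gut/mesenteric tumours, 6 genes above expectation or of the core binding factor list, and 2 loci where SB inserts often; the black line parts spleen from gut/mesenteric samples.

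Genes hit above the expectation from their TA sites were then counted, since a gene shared by both groups is invisible in a comparison between them. The expectation of a gene was the number of insertions of each tumour on its chromosome times the gene's share of that chromosome's TA sites. Over the 9 tumours, 91 of 23859 genes (0.381%) were called at a Bonferroni-adjusted Wald p of 0.05 with a hit in at least 3 tumours. In the 6 gut/mesenteric tumours 57 genes (0.239%) were called, and in the 3 spleen tumours 32 genes (0.134%), where the rule requires a hit in every tumour. Called in both groups were 6 genes, 10.5% of the gut/mesenteric and 18.8% of the spleen genes, among them En2, Malt1, Picalm, Ptprc and Sfi1. Of the 6, 3 were also called in the 11 tails, En2 and Sfi1 among them, and 43 genes were called in the tails in all. A gene called in one group and not in the other is not shown to differ between them. The number depends on the test, since with an exact Poisson p 29 genes were called over the 9 tumours, all of them among the 91.

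Ptprc, which encodes the phosphatase CD45 of all leukocytes, was hit in all 9 tumours, with 3, 7 and 6 insertions in spleen and 10, 7, 4, 2, 4 and 13 in gut/mesenteric tumours. These are 56 insertions against 2.13 expected, whereas tails had 4 insertions in 4 of 11 mice. Ptprc did not pass the test between the groups (log2 fold change -0.59, edgeR adjusted p = 0.955). Its insertions carried few reads, between 0.0193% and 0.353% of those of a tumour. Traf3, which encodes an inhibitor of non-canonical NF-kB signalling, had 29 insertions against 1.51 expected: 0, 1 and 4 in spleen and 2, 1, 8, 0, 0 and 13 in gut/mesenteric tumours. Its log2 fold change was -1.39 (edgeR adjusted p = 0.94). Malt1 had 16 against 1.04 expected, with a log2 fold change of 0.48 between the groups (edgeR adjusted p = 0.955). Fas had 22 against 0.888 expected, with a log2 fold change of -1.53 (edgeR adjusted p = 0.94). When gut/mesenteric tumour 6 was left out, Fas was no longer called above expectation (Bonferroni-adjusted Wald p = 0.104). Ube2d3, a ubiquitin-conjugating enzyme gene, had 12 insertions, 7 of them in spleen tumour 2, and was also called in the tails. En2 and Sfi1, known as hotspots of SB screens, had 27 and 39 insertions. They were hit in all 9 tumours and in all 11 tails, and they serve here as loci at which no difference between the groups was called (log2 fold change -0.11 for En2 and 0.46 for Sfi1).

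The gene lists gave few tested members, since most genes had fewer than 10 insertions. In the list of core binding factor genes, 1 of 2 tested members was called (Cbfb), against 0.305% over all genes. In each of the other lists no member was called. Of the B-lineage transcription factors, 2 of 26 members were tested, and they went opposite ways, with a log2 fold change of -2.18 for Ebf1 and a value above 0 for Foxp1, against a median of -0.06 over all 328 genes. Of the NF-kB pathway, 2 of 25 were tested, likewise of opposite sign (-1.39 for Traf3 and 0.48 for Malt1), and 14 had an insertion. Of the B-cell receptor signalling genes 2 were tested, Ptprc among them, and of the death receptor and apoptosis genes only Fas. Of the genes for homing, adhesion and tissue confinement, which govern where lymphocytes travel and stay, 13 of 27 had an insertion and 2 were tested, with a log2 fold change of 1.16 for Arhgap15 and -1.07 for Sipa1l1. Insertions in this list made up 2.02 to 2.95 per 1000 in the spleen tumours and 0 to 1.87 per 1000 in the gut/mesenteric tumours. In all other lists among the 12 examined, the ranges of the groups overlapped. A single gene, Arhgap15, had 5, 7 and 5 of these insertions in spleen tumours 1 to 3 and 2, 2, 1, 0, 4 and 3 in the gut/mesenteric tumours (edgeR adjusted p = 0.94). The list was chosen with earlier results known, so no test of it is given. Of the chromatin genes mutated in lymphoma, 6 of 21 were tested, 1 with more and 5 with fewer insertions in spleen, with a median of -0.30, against 153 with more and 175 with fewer over all 328 genes. One of the 5, Hdac9, was at -0.01. Over the whole list, tested or not, the mean rate went the other way, with 3.57 per 1000 insertions in spleen and 2.70 in gut/mesenteric tumours. Of the T-lineage genes, 3 were tested (Tox, Themis and Tcf12), all with fewer in spleen, with a median of -0.72. The oncogenes and cell cycle genes had 2 tested members (Nf1 and Rasa1; median -0.50), the Notch and marginal zone pathway 1 (Fbxw7; 0.37) and the recombination repair genes none.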

How the data were processed

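The authors extracted tumour and tail DNA, sheared it, amplified both transposon ends by splinkerette PCR and sequenced them on a MiSeq (75 bp, paired-end). The table deposited by the authors gives, per sample, the position (mm10), orientation and read count of each insertion, as raw counts of at least 2 reads in the 9 tumours. Aligner, insertion caller and filters are not given in the sources used here, so their effect was not examined, and as no molecular identifiers were read, reads are not separate molecules. A further per-sample column (1) of normalized coverage was not used. Positions were moved to the nearest TA (SB) or TTAA (PB) within 5 bp, and each was counted once per sample. Of 54942 table lines of the 9 tumours, 51 had no TA in reach. Sex chromosomes and donor chromosome 14 were left out. Genes were 23986 RefSeq gene bodies of GRCm38, of which 23859 hold a TA.

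Sample measures were compared by exact 2-sided permutation over all 84 splits of 3 against 6 samples (p doubled from the smaller side; smallest p 0.0238), PB measures with 100000 resamples. Insertions per gene were tested with edgeR 4.0.16 quasi-likelihood (R 4.3.3), with the number of insertions as library size and at least 10 insertions over the 9 tumours. DESeq2 1.42.0 was an alternative. Scripts were tested on simulated data for the 328 genes. There edgeR called 50 of 50 genes raised 16-fold in spleen and 18 of 50 lowered 16-fold. At 8-fold it called 48 of 50 raised and 12 of 50 lowered genes, so genes with fewer insertions in spleen were harder to call. Named genes were those called, the 5 smallest p in each direction, the 10 (9 tumours) or 5 (each group) smallest p above expectation, genes holding the 3 most covered insertions of each tumour, and the core binding factor (Cbfb, Runx1, Runx2, Runx3, Runx1t1, Cbfa2t3) and hotspot (En2, Foxf2, Sfi1) genes with at least 10 insertions. Some of these results are not reported here. Members and lists were chosen with earlier results of these data known. Fold changes and ratios were computed here, none taken from the authors.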

Additional observations from a re-analysis of the deposited data

Results flagged for a closer look

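Gut/mesenteric tumour 4 lay far from the other 5 of its group in the share of reads on the 10 most covered insertions (82.0%) and on the most covered insertion (27.8%). In the number of insertions per gene, a single gut/mesenteric tumour stood apart in Camta1 (27 insertions, tumour 5), Slamf6 (14, tumour 6), Rsrc1 (10, tumour 6), Cblb (5, tumour 6) and Cbfb (2, tumour 6). Chance flags about 5% of groups in this way where values are continuous and normally distributed. That rate does not hold for small insertion counts, since a gene hit in a single tumour of the group is always flagged. Within this group, Cbfb and Slamf6 were hit in tumour 6 alone. No conclusion is therefore drawn from the flags of the genes. Tumour 6 also had the most insertions of the group (8786).

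The 2 SB tumours in neither group lay above all SB tails in the share of reads on the 10 most covered insertions. It was 65.1% in the tumour labelled THYMUS and 7.99% in the one labelled LN SAL GL, against at most 5.81% in the 11 tails.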

How the results depend on the processing

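The exact test of the reads on the 10 most covered insertions (main difference -23.1 points) gave -18.6 (p = 0.0714) with shared positions left out, -36.7 (p = 0.25) with the name number as replicate block and -11.4 (p = 0.114) without the small intestine samples. Leaving out 1 tumour gave -26.9 to -13.5 points, the smallest without gut/mesenteric tumour 4, with p up to 0.143. For insertions with at least 1% of reads (-5.17), shared positions left out gave -3.83 (p = 0.0714), a limit of 0.5%, chosen after seeing the data, -7.5 (p = 0.0714), the replicate block -5.00 (p = 0.25) and no small intestine samples -5.83 (p = 0.0571). Leaving out 1 tumour gave -5.93 to -4.53. The block pairs 3 tumours with 3 by the number in their names, whose meaning is not stated, and cannot reach a p below 0.25. With at least 10 reads per insertion, the difference was 1520 in insertions per sample and 2.66 in the effective number on the log2 scale. Each had an exact permutation p of 0.0238, with more reads in all 3 spleen tumours. In the main setting without gut/mesenteric tumour 6, the difference in the effective number was 2.65. Leaving out 1 tumour gave 366 to 1795 insertions per sample and 1.17 to 2.65 for the effective number. Called genes between the groups were 0 with DESeq2 (3 at an unadjusted p below 0.05), 0 by presence (2), 0 with the replicate block (4; Cbfb adjusted p = 0.197) and 0 without spleen tumour 1 (12), and 1 in all other alternatives run, so 0 to 1 on leaving out 1 tumour. By presence per tumour Ebf1 reversed to 0.16 on the log2 scale. Genes above expectation numbered 91 in the main setting, 29 by the exact Poisson test, 19 by presence, 56 with at least 10 reads, 288 with Benjamini-Hochberg adjustment and 64 to 86 on leaving out 1 tumour. Many genes have too few TA sites for even 1 insertion to be expected, so a gene without a call may still be selected.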

Other observations

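The highest ratio of insertions to TA sites on a chromosome, chromosome 14 left out, was 1.48 or more in 8 of the 9 tumours. The chromosome was 19 in spleen tumour 1 (1.82) and gut/mesenteric tumours 3 (2.23) and 5 (1.69). It was chromosome 9 in spleen tumour 3 (1.59), and chromosomes 15, 3 and 13 in gut/mesenteric tumours 2 (1.87), 4 (1.86) and 6 (1.48). Spleen tumour 2 had the lowest value, 1.24 for chromosome 4, which also held 4 of its 10 most covered insertions.

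Skint5, with 0 insertions in the 3 spleen tumours and 10 in the gut/mesenteric tumours, had 36 in the 2 SB tumours of neither group. Within 10 bp of another insertion of the same tumour lay 0 to 11 insertions, most of them with the same number of reads as their neighbour.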
